A study of Sus scrofa with 24 samples.

Results

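CD79B, BLNK, SPIB and CD40 are 4 genes of the B cell, and their levels were followed in the blood cells of pigs fed 6 diets. The members are all probe sets that the platform's probe-to-gene table names with 1 of these 4 symbols. They were 6 probe sets of 23999 that are no control: 1 each for CD79B (Ssc.12584.1.A1_at), BLNK (Ssc.8594.1.A1_at) and SPIB (Ssc.19453.1.S1_at), and 3 for CD40, here called CD40-A (Ssc.11752.1.A1_s_at), CD40-B (Ssc.5915.1.S1_at) and CD40-C (Ssc.26880.1.A1_s_at). All 6 were among the 17999 probe sets kept after the dimmest 25% were left out. The study measured RNA of peripheral blood mononuclear cells (PBMNCs), the lymphocytes and monocytes that a density gradient separates from blood, on 24 Affymetrix arrays, with 2 females and 2 males in each group of 4 pigs.

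All pigs were fed their diet for 4 months, and the labels used here give no age or breed. The CT group ate standard commercial pig chow. The AD group ate an atherogenic diet, a high-fat feed in which coconut oil made up 10%, beef tallow 5.5% and cholic acid 1%. Grape extract (GE) was added to that diet in the AD-GE group, at 1 g per 70 kg of body weight. The AD-RES group had the atherogenic diet with resveratrol (RES), a plant polyphenol, at 18 mg per 70 kg. The AD-GE-RES group had the atherogenic diet with a resveratrol-enriched grape extract, 1 g of extract carrying 18 mg of resveratrol per 70 kg. The CT-GE-RES group had that enriched extract, at the same amount, on chow. The study compared AD with CT, the 3 supplemented atherogenic diets with AD, and CT-GE-RES with CT. The AD pigs are the control of 3 of these comparisons and the CT pigs of the other two, so comparisons that share a control are given side by side.

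A B cell recognises antigen through its surface immunoglobulin, and the signal enters the cell through the CD79A and CD79B chains that sit beside it. Kinases recruited there phosphorylate BLNK, an adaptor that gathers BTK and other enzymes into a signalling complex. SPIB is an ETS-family transcription factor, a relative of PU.1, used by B cells and by plasmacytoid dendritic cells. CD40 is the receptor through which T cells carrying CD40 ligand (CD40LG) drive B cells to proliferate, switch their immunoglobulin class and mature. BLNK and CD40 are also made by monocytes, macrophages or dendritic cells, so of the 4 CD79B is the one most restricted to B cells.

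The deposited values were alike over the arrays, with a median intensity of 38.6 to 41.0 on each array and a mean correlation of 0.957 to 0.982 with the other arrays. The lowest correlations belonged to CT 4 and AD-GE-RES 1, which stood apart in an earlier analysis too. The arrays differed in the 3′/5′ ratio, here the mean log2 difference between the 3′ and the 5′ probe sets of 3 control transcripts (those of gapdh, actin and ef1a), a usual readout of RNA integrity. It ran from 1.37 to 4.39. Its mean was highest in CT, 3.15 ± 1.13 (SD, n = 4), and lowest in AD-RES, 1.92 ± 0.23 (SD, n = 4). CD79A, MS4A1 and PAX5, which would help to check the B cell label, are not named in the annotation used here. The label therefore rests on CD79B, and the way the members vary together does not test it.

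Across the diets, no member probe set passed the test in any comparison. The model was limma on log2 intensity over all 24 arrays with sex as a term, and a call is an adjusted p (Benjamini-Hochberg over 17999 probe sets) under 0.05. In each of the 5 comparisons it called 0 of 6 members and 0% of all probe sets tested. Without adjustment, limma gave p under 0.05 for 432 to 1224 probe sets in these comparisons and for none of the members. The nearest was BLNK in AD-GE against AD, at the threshold (limma unadjusted p = 0.05001). The moderated F test over all 6 diets called 0 of 6 members and 0% of all probe sets. Before adjustment 1649 probe sets were under 0.05, BLNK among them (limma unadjusted p = 0.0252). Animals of the groups compared overlapped for all 6 members in all 5 comparisons, where 2.74% of all probe sets did not overlap between AD and CT, 4.72% between AD-GE and AD, 1.26% between AD-GE-RES and AD, 2.81% between AD-RES and AD, and 4.03% between CT-GE-RES and CT. Between the sexes, CD79B, SPIB and CD40-A had a higher mean in females than in males within every diet group. CD40-A alone passed the test (limma adjusted p = 0.0482), where 0.267% of all probe sets passed, and CD40-B and CD40-C did not. The CD40-A call was kept in 5 of the 24 fits that left out 1 pig.

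CD79B is the signalling chain of the antigen receptor. Its log2 intensity in the CT pigs was 9.44 and 9.43 in the females and 8.54 and 8.56 in the males. In the AD pigs it was 9.30 and 8.60 in the females and 8.57 and 8.04 in the males. The AD-GE females had 9.57 and 9.41, and the males 8.28 and 8.07. In these 3 groups each female stood above each male. AD-RES showed the same split at a lower level, with 9.05 and 8.69 in females against 7.83 and 7.56 in males. The sexes were mixed in AD-GE-RES, where females had 8.46 and 9.36 and males 9.21 and 8.40. They were mixed in CT-GE-RES too, with 8.89 and 8.71 in females and 9.003 and 8.51 in males. Every diet group overlapped with every other in CD79B.

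The CD79B group means ran from 8.995 ± 0.51 (SD, n = 4) in CT to 8.29 ± 0.70 (SD, n = 4) in AD-RES. AD-GE-RES came next after CT, then AD-GE, CT-GE-RES and AD. No neighbours in this order differed by more than the larger of their SDs. The AD minus CT difference was −0.37 on the log2 scale (SE 0.27, limma adjusted p = 0.780), and the exact permutation test of 4 against 4 pigs gave p = 0.314 (two-sided). That test cannot give a p below 0.0286. Against AD, the difference was 0.20 for AD-GE, 0.23 for AD-GE-RES and −0.34 for AD-RES, and CT-GE-RES minus CT was −0.22, with SE 0.27 each. The limma intervals therefore leave room for differences in either direction: AD minus CT had a 95% interval of −0.93 to 0.19.

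**Figure D1:**
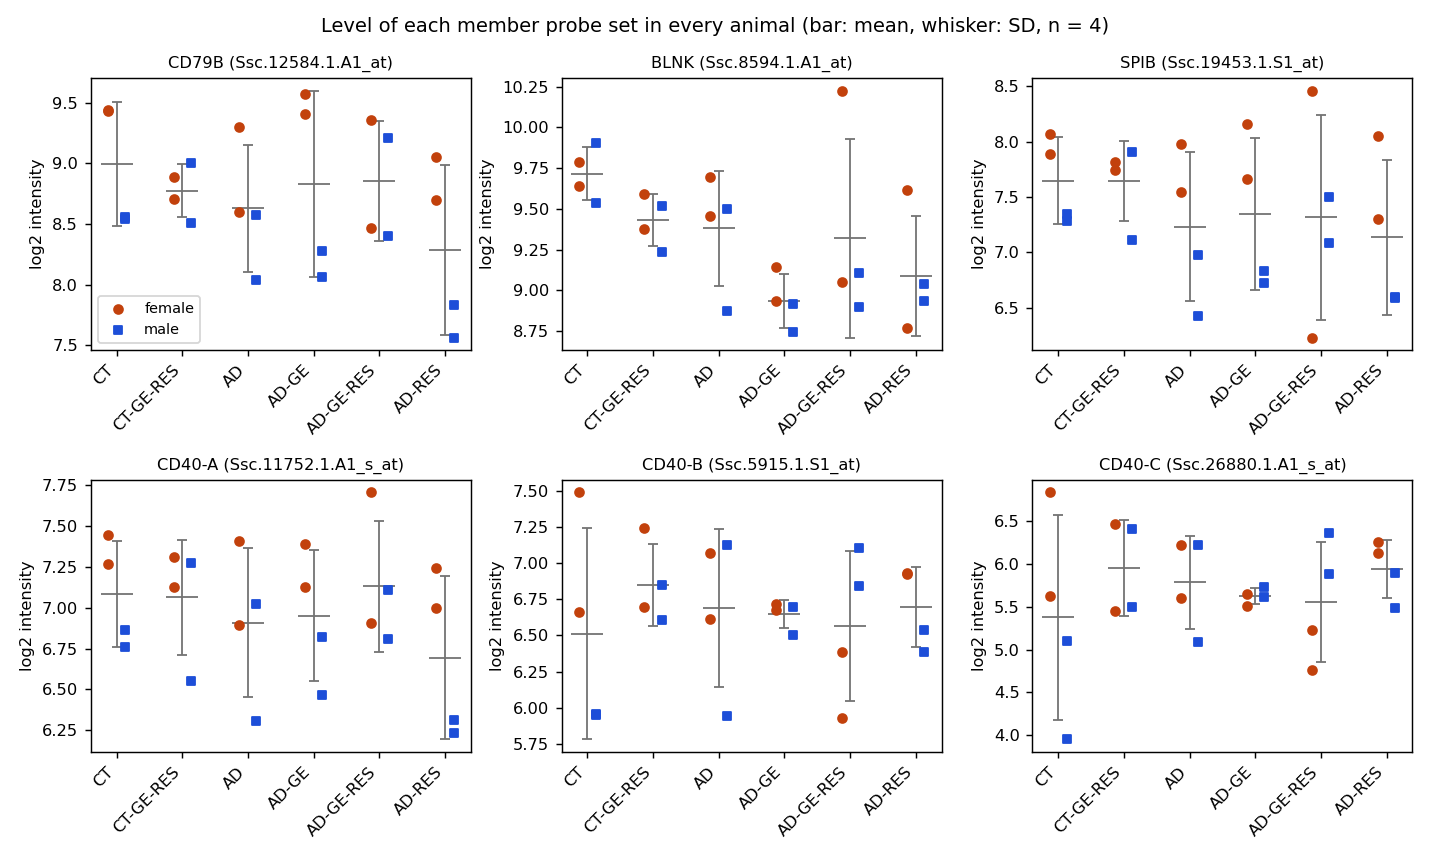
Log2 intensity of the 6 member probe sets (one panel each) in every pig, by diet group; circles are females, squares males, the bar is the mean and the whisker 1 SD of 4 pigs. CD79B females of CT, AD, AD-GE and AD-RES lie above the males of their group, and BLNK has its highest mean, 9.71, in CT and its lowest, 8.93, in AD-GE.

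BLNK is the adaptor downstream of the receptor. Its log2 intensity in the CT pigs was 9.64, 9.79, 9.53 and 9.90 (females first here and below). The AD pigs had 9.69, 9.46, 9.50 and 8.87, so 3 of 4 lay below every CT pig. The AD-GE pigs had 8.93, 9.14, 8.75 and 8.92, the lowest group. In AD-GE-RES the values were 9.05, 10.22, 8.90 and 9.11. One female of that group is the highest of all 24 pigs, while the other 3 lie close to AD-GE. The AD-RES pigs had 9.61, 8.77, 9.04 and 8.93, and the CT-GE-RES pigs 9.59, 9.38, 9.52 and 9.23. In CT-GE-RES, as in AD, 3 of 4 pigs lay below every CT pig.

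The BLNK means, from the highest, were 9.71 ± 0.16 in CT, 9.43 ± 0.16 in CT-GE-RES and 9.38 ± 0.35 in AD (SD, n = 4 each). AD-GE-RES followed with 9.32 ± 0.61, AD-RES with 9.09 ± 0.37 and AD-GE with 8.93 ± 0.16 (SD, n = 4 each). CT and CT-GE-RES, 0.28 apart, are the only neighbours in the order of any member that differed by more than the larger SD. The log2 difference of AD-GE from AD was −0.45 (SE 0.21, limma adjusted p = 0.814), with p = 0.114 by the exact permutation test. AD minus CT was −0.33 (SE 0.21, limma adjusted p = 0.771), also with p = 0.114 by the exact permutation test. CT-GE-RES minus CT was −0.28 (SE 0.21, limma adjusted p = 0.722), with p = 0.0571 by the exact permutation test, the smallest of any member in these comparisons. AD-RES was −0.29 and AD-GE-RES −0.061 from AD.

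Of the variance of BLNK over the 24 pigs, 41.3% lay between diet groups and 10.9% between the sexes. For CD79B these shares were 17.7% and 41.8%, for SPIB 10.7% and 35.4%, and for CD40-A 14.4% and 46.5%. They were 6.8% and 8.3% for CD40-B and 11.5% and 2.9% for CD40-C. The variation of the sex difference by diet held 48.3% for CD40-B and 47.2% for CD40-C, against 5.5% to 20.6% for the other members. The diet share spans 6 group means and the sex share 2, so chance alone tends to make the diet share larger. No test compared them. BLNK did not pass limma's moderated F test over the diets (adjusted p = 0.462), although its unadjusted p was 0.0252 in the limma fit. Outside the study's own comparisons, and chosen after the values were seen, AD-GE and CT did not overlap in BLNK, and neither did AD-GE and CT-GE-RES. Among all probe sets, 9.6% and 13.7% did not overlap in those 2 pairs. The monocyte list also stood lower in AD-GE: 16 of 16 markers were lower than in AD, with a median log2 difference of −0.53 and none called by limma. Their summed level, the mean log2 deviation of the list, was −0.57 to −0.15 in AD-GE pigs and 0.14 to 0.46 in AD pigs. BLNK had r = 0.090 with this level over the 24 pigs (permutation p adjusted over 12 relations 0.878). With diet group and sex means removed, r was −0.291 (permutation p adjusted 0.286). The part of the monocyte list in the BLNK values was not tested. In bulk RNA, fewer cells of a type and less RNA per cell cannot be told apart.

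**Figure D2:**
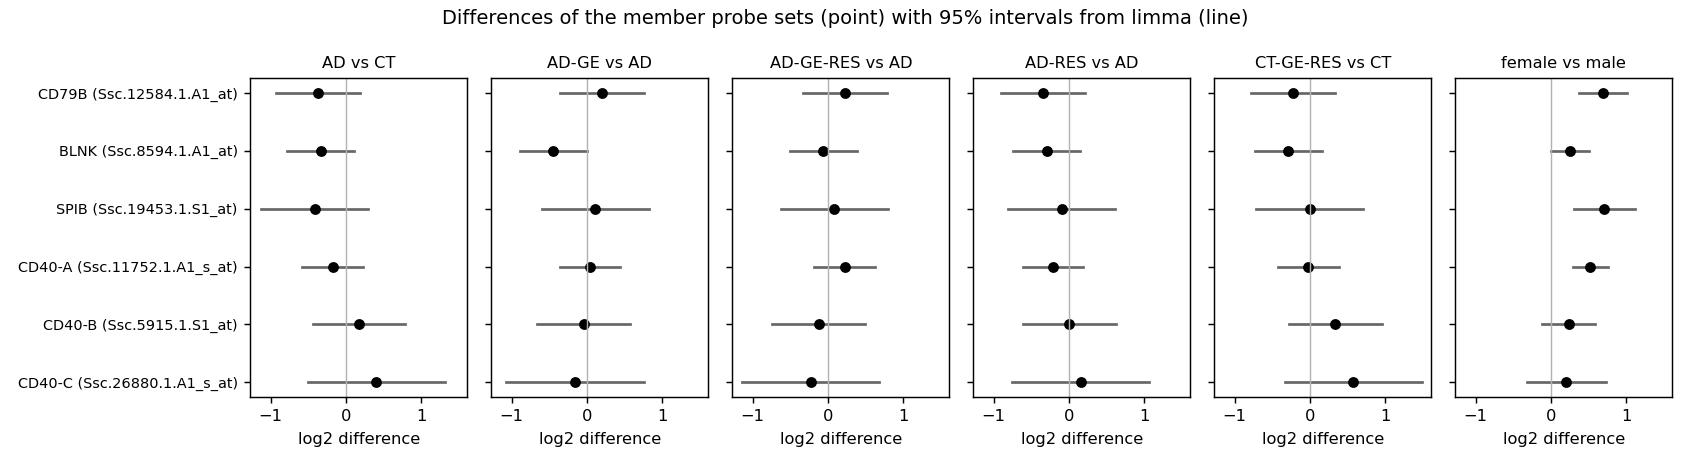
Log2 differences of the 6 member probe sets (points) with 95% intervals from limma (lines) in the 5 diet comparisons and between the sexes. All intervals of the diet comparisons include 0, while those of CD79B, SPIB and CD40-A lie above 0 for female minus male.

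SPIB, the transcription factor of the set, had an SD of 0.61 over the 24 pigs. Its log2 intensity was 8.07, 7.89, 7.28 and 7.35 in CT, and 7.98, 7.55, 6.98 and 6.43 in AD. AD-GE pigs had 8.16, 7.66, 6.83 and 6.73, and AD-RES pigs 8.05, 7.30, 6.59 and 6.59. In these 4 groups each female stood above each male, as for CD79B. AD-GE-RES held both the lowest and the highest pig of the study, 6.23 and 8.46, both females, with males at 7.50 and 7.09. CT-GE-RES pigs had 7.74, 7.82, 7.91 and 7.11.

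The SPIB means ran from 7.65 ± 0.39 in CT and 7.64 ± 0.36 in CT-GE-RES to 7.13 ± 0.70 in AD-RES (SD, n = 4 each). AD-GE, AD-GE-RES and AD lay between, and no neighbours differed by more than the larger SD. The largest of the 5 differences was AD minus CT, −0.42 on the log2 scale (SE 0.34, limma adjusted p = 0.796; 95% interval −1.13 to 0.29). CT-GE-RES and CT differed by −0.0034, with a 95% interval of −0.71 to 0.71, which is too wide to call them alike. The difference from AD was 0.11 for AD-GE, 0.086 for AD-GE-RES and −0.097 for AD-RES.

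CD40, the receptor for T cell help, was measured by 3 probe sets that did not follow the same order. The suffix _s_at marks a probe set whose probes can match more than 1 transcript. CD40-A, which has the highest mean of the 3, had a log2 intensity of 7.26, 7.45, 6.76 and 6.86 in CT and of 7.40, 6.90, 7.03 and 6.31 in AD. It was 7.13, 7.39, 6.82 and 6.47 in AD-GE and 6.90, 7.70, 7.11 and 6.81 in AD-GE-RES. AD-RES pigs had 7.24, 6.995, 6.31 and 6.23, and CT-GE-RES pigs had 7.31, 7.12, 7.27 and 6.55. The 3 lowest pigs were the AD-RES males and AD 4, also a male, as they were for CD79B. Group means ran from 7.13 ± 0.40 in AD-GE-RES to 6.69 ± 0.50 in AD-RES (SD, n = 4 each), and AD minus CT was −0.18 (SE 0.19, limma adjusted p = 0.851).

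The other CD40 probe sets had another order. CD40-B had a log2 intensity of 7.49, 6.66, 5.95 and 5.95 in CT, against 6.50 to 6.71 in AD-GE. In AD-GE-RES its females were low, at 5.93 and 6.38, and its males high, at 7.10 and 6.84, the reverse of the CD79B pattern in most groups. CD40-C went the same way: 6.84, 5.63, 5.10 and 3.95 in CT, 4.76, 5.23, 6.36 and 5.88 in AD-GE-RES, and 5.51 to 5.74 in AD-GE. For both, the highest mean was in CT-GE-RES, 6.85 ± 0.28 and 5.95 ± 0.56, and the lowest in CT, 6.51 ± 0.73 and 5.38 ± 1.20 (SD, n = 4 each). CT-GE-RES minus CT was 0.34 (SE 0.30, limma adjusted p = 0.757) and 0.58 (SE 0.44, limma adjusted p = 0.726). These signs turned when the 3′/5′ ratio was a covariate, to −0.042 and −0.022. No direction by diet can therefore be given for CD40 from these probe sets.

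The enriched extract was given on both diets, so its difference could be compared between them. The log2 difference AD-GE-RES minus AD exceeded that of CT-GE-RES minus CT by 0.45 for CD79B, 0.22 for BLNK, 0.090 for SPIB and 0.24 for CD40-A. For the other CD40 probe sets it was smaller, by −0.46 and −0.80. Limma called 0 of 6 members and 0% of all probe sets for this interaction, with 561 probe sets and no member under 0.05 before adjustment.

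Between females and males, limma called 1 of 6 members, which is to be read against 0.267% of all probe sets (48 of 17999) called in either direction and 0.194% called higher in females. The called member is CD40-A, with 7.23 ± 0.24 in females and 6.71 ± 0.34 in males (SD, n = 12 each). The difference was 0.52 on the log2 scale, or 1.44-fold (SE 0.11, limma adjusted p = 0.0482). The female values ran from 6.90 over a median of 7.25 to 7.70, and the male values from 6.23 over 6.78 to 7.27. All 12 females lay above the male median, although the ranges overlapped. The call was the last of the 48 and depended on single pigs: it was kept in 5 of the 24 fits that left out 1 pig (AD 2, AD 3, AD-GE-RES 1, AD-GE-RES 3 or CT-GE-RES 3) and lost in the other 19. Over these fits limma's adjusted p ran from 0.00639 to 0.121 and the difference from 0.48 to 0.58. The call was also lost with the 3′/5′ ratio as a covariate (limma adjusted p = 0.0771) and without the filter on dim probe sets (0.0535).

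CD79B was 1.62-fold higher in females, 9.08 ± 0.39 against 8.38 ± 0.46 (SD, n = 12 each), a log2 difference of 0.69 (SE 0.15, limma adjusted p = 0.0667). It did not pass over all probe sets, and a permutation of the sex labels for this probe set alone gave p = 6.8e-04. SPIB was 7.74 ± 0.56 in females and 7.03 ± 0.43 in males (SD, n = 12 each), a log2 difference of 0.71 (SE 0.20, limma adjusted p = 0.192; permutation p = 0.00279). Both passed when the female AD-GE-RES 1 was left out, CD79B with a difference of 0.78 (limma adjusted p = 0.00654) and SPIB with 0.88 (limma adjusted p = 9.23e-04). CD79B also passed without AD-GE-RES 3 (limma adjusted p = 0.0156) or CT-GE-RES 3 (limma adjusted p = 0.0255). Of the 24 fits that left out 1 pig, CD79B passed in 3 and SPIB in 1. Over these fits limma's adjusted p ran up to 0.157 for CD79B and 0.356 for SPIB. AD-GE-RES 1 was the lowest female for both genes, and AD-GE-RES 3 and CT-GE-RES 3 were the highest males for CD79B. Each of these removals widened the difference. Without both CT 4 and AD-GE-RES 1, the arrays that stood apart, the differences were 0.59 for CD40-A (limma adjusted p = 0.0106), 0.78 for CD79B (limma adjusted p = 0.0122) and 0.90 for SPIB (limma adjusted p = 0.00158). BLNK differed by 0.26 (SE 0.12, limma adjusted p = 0.487). The other CD40 probe sets differed by 0.24 (CD40-B, limma adjusted p = 0.668) and 0.21 (CD40-C, limma adjusted p = 0.818).

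The 3′/5′ ratio itself was 2.60 ± 0.89 in females and 2.27 ± 0.94 in males (SD, n = 12 each; permutation p = 0.375). The summed level of the T cell list was −0.74 to 0.48 in females and −1.13 to 0.49 in males. The monocyte list ran from −0.92 to 0.60 in females and from −0.38 to 0.57 in males. Limma called none of the 13 T cell and 16 monocyte genes between the sexes, where 4 of 13 and 5 of 16 were higher in females. With the ratio as a covariate, the CD40-A difference between the sexes was 0.51 (limma adjusted p = 0.0771), against 0.52 without it. The part of the T cell and monocyte lists in the sex difference of the members was not tested.

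Within the diet groups, the female mean was above the male mean in 6 of 6 groups for CD79B, SPIB and CD40-A. It was so in 5 of 6 for BLNK and CD40-B, and in 4 of 6 for CD40-C. The size differed: for CD79B it was 1.32 in AD-GE, 1.17 in AD-RES, 0.88 in CT and 0.65 in AD, but 0.11 in AD-GE-RES and 0.041 in CT-GE-RES. SPIB had its smallest differences in the same groups, with 0.054 in AD-GE-RES and 0.27 in CT-GE-RES against 0.66 to 1.13 elsewhere. Each of these values comes from 2 females and 2 males, and that of AD-GE-RES depends on single pigs, among them AD-GE-RES 1, an array that stood apart. Without AD-GE-RES 1, the remaining female exceeded the mean of the 2 males by 1.17 for SPIB, above the difference in every other group, and by 0.55 for CD79B. That female, AD-GE-RES 2, had the highest SPIB of all pigs, 8.46, and an array with a 3′/5′ ratio of 4.08. For CD79B the male AD-GE-RES 3 was high too, at 9.21 against 8.40 in the other male, and was not left out here. The test of whether the sex difference varies by diet, limma's moderated F, called 0 of 6 members and 0.256% of all probe sets (46 of 17999). For CD79B it gave an adjusted p of 0.242, for SPIB 0.678 and for the 3 CD40 probe sets 0.871, 0.181 and 0.185.

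**Figure D3:**
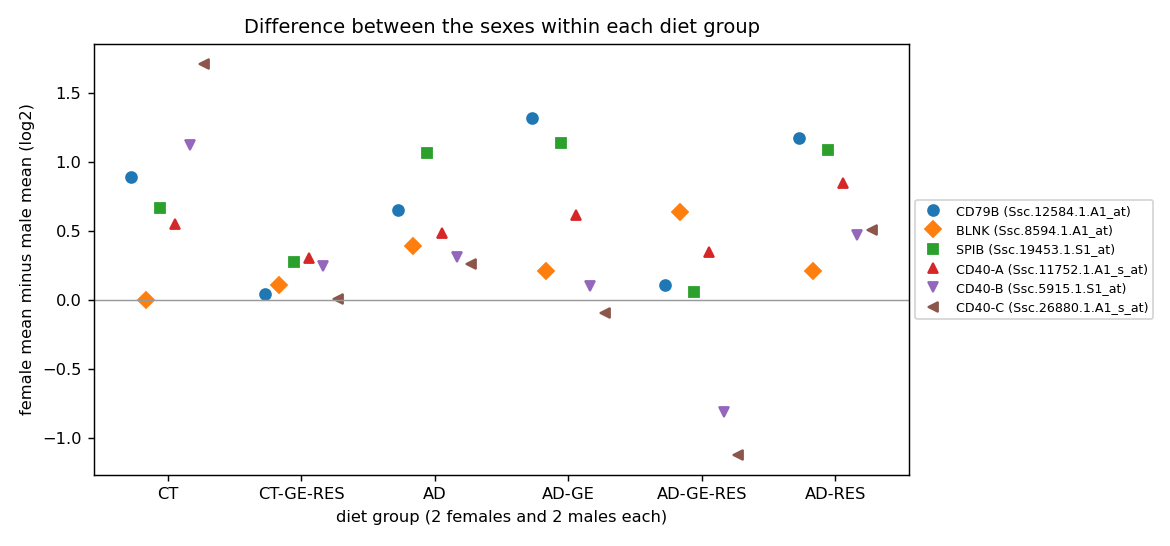
Female mean minus male mean of log2 intensity for each member probe set (symbols) within each diet group of 2 females and 2 males; points above 0 are higher in females. CD79B ranges from 0.041 in CT-GE-RES to 1.32 in AD-GE, and the CD40 probe sets CD40-B and CD40-C lie below 0 in AD-GE-RES.

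CD79B, SPIB and CD40 varied together from pig to pig. By the probe set with the highest mean for each gene, Pearson's r over 24 arrays was 0.907 for CD79B and CD40, 0.865 for CD79B and SPIB and 0.845 for SPIB and CD40. Spearman's rho was 0.903, 0.907 and 0.837, and each r and rho had a permutation p of 1e-05, the smallest that 100000 permutations can give, or 2e-05 after adjustment over the 6 pairs. Without the 2 arrays farthest from the median the r values were 0.921, 0.852 and 0.891. They were 0.802, 0.811 and 0.764 after the means of diet group and sex had been removed. Without CT 4 and AD-GE-RES 1 they were 0.908, 0.905 and 0.908. The points share arrays, and array-wide properties such as the 3′/5′ ratio are common to all genes on them.

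BLNK followed this trio more loosely. Its r was 0.640 with SPIB (permutation p = 7.8e-04, adjusted 0.00117), with a rho of 0.612 (permutation p adjusted 0.00304), and 0.619 with CD40 (permutation p = 0.00133, adjusted 0.0016), with a rho of 0.592 (permutation p adjusted 0.00348). Without the 2 arrays farthest from the median these were 0.612 and 0.595. With CD79B, r was 0.482 (rho 0.495, permutation p adjusted 0.0165 and 0.0153) and 0.569 without the farthest arrays. That relation no longer passed once group and sex means were removed (r = 0.307, permutation p adjusted 0.143).

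The 3 CD40 probe sets did not all vary together. CD40-B and CD40-C correlated at r = 0.898 with each other, but at 0.359 and 0.117 with CD40-A (rho 0.863, 0.322 and 0.101; permutation p of r adjusted over 3 pairs 3e-05, 0.123 and 0.587, and of rho 3e-05, 0.189 and 0.637). Both followed the 3′/5′ ratio of the array: r was −0.699 (rho −0.743, permutation p adjusted 2.4e-04 and 2.7e-04) and −0.816 (rho −0.791, permutation p adjusted 6e-05 for both), adjusted over 6 relations. Without the 2 arrays farthest from the median ratio these were −0.649 and −0.757. The 4 other member probe sets had r between 0.280 and 0.454 with the ratio and did not pass (permutation p adjusted 0.138, 0.0528, 0.185 and 0.138 for CD79B, BLNK, SPIB and CD40-A). Without CT 4 and AD-GE-RES 1 these 4 also passed, with r of 0.423 to 0.492 (permutation p adjusted 0.043 to 0.0492), against −0.607 for CD40-B and −0.742 for CD40-C. When group, sex and ratio were all removed, CD40-B correlated at 0.838 and CD40-C at 0.577 with CD40-A.

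The ratios lie in a lower set of arrays, 1.37 to 1.97, and an upper one, 2.23 to 4.39, when split at their median. Within the 12 lower arrays CD40-B had r = −0.610 and CD40-C −0.526 with the ratio, and within the 12 upper arrays −0.531 and −0.767. All 4 keep the sign, and none passed after adjustment over 12 relations (permutation p adjusted 0.142, 0.167, 0.167 and 0.0628). In the lower arrays the other members were negative too, with r of −0.4995 for CD79B, −0.677 for BLNK, −0.518 for SPIB and −0.462 for CD40-A, opposite in sign to their r over all 24 arrays. In the upper arrays these were 0.0072, 0.44, −0.0097 and 0.070, and none passed in either set (permutation p adjusted 0.096 to 0.982). The lower set held 4 females of 12 and the upper 8 of 12, and sex was not removed within the sets. With diet group and sex means removed over all 24 arrays, r with the ratio was 0.081 (CD79B), 0.37 (BLNK), 0.13 (SPIB) and 0.17 (CD40-A). None of these 4 passed (permutation p adjusted 0.152 to 0.707). For CD40-B and CD40-C it was −0.82 and −0.87. CD40-B and CD40-C also followed the mean of the 13 T cell markers, at r = 0.751 (rho 0.749) and 0.855 (rho 0.768). Their permutation p adjusted over 12 relations was 3e-04 and 1.2e-04 (3.6e-04 for each rho). Without the 2 farthest arrays r was 0.771 and 0.850, and without CT 4 and AD-GE-RES 1 it was 0.649 and 0.710. With group, sex and ratio removed these were 0.564 and 0.695. What the ratio or T cell RNA contributes to these probe sets was not tested. The relations among CD40 probe sets, with the ratio and with the marker lists were chosen after the values were seen.

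**Figure D4:**
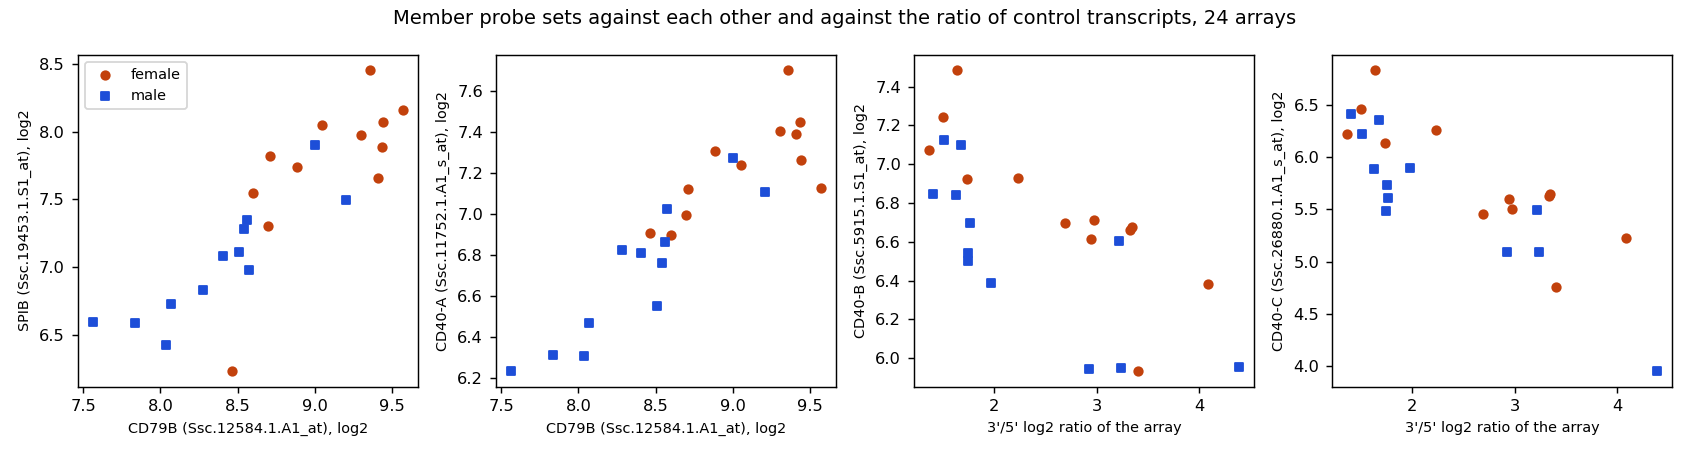
Each point is 1 array (circles females, squares males, 24 in all): log2 intensity of CD79B against SPIB and against CD40-A, then the 3′/5′ log2 ratio of the array against CD40-B and CD40-C. The first pair of panels rises along a line (r = 0.865 and 0.907), and the second pair descends with the ratio (r = −0.699 and −0.816).

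Among 6029 other genes with 1 symbol, those most like each member over the 24 arrays were ranked by Pearson's r, given as a description. The ranking does not show which cells these genes come from. Of those named, BCL11A alone is in the B cell lists described below, and THY1, the closest to CD79B, is not. For CD79B they were THY1 (0.925), SCAP (0.895), SCIMP (0.872), SPOP (0.861) and LOC100519643 (0.857). SCIMP is a membrane adaptor of antigen-presenting cells, and SCAP escorts the sterol-sensing transcription factors SREBP. For SPIB they were LOC100519643 (0.926), SCIMP (0.899), GGA3 (0.896), SWAP70 (0.893) and PHOSPHO2 (0.885). SWAP70 is a signalling protein of B cells. For CD40-A they were SWAP70 (0.889), LOC100519643 (0.872), CD1.1 (0.849), CDIP1 (0.839) and BCL11A (0.837). BCL11A is a transcription factor needed for B cell development, and CD1.1 is a lipid-presenting molecule. LOC100519643 stands in all 3 lists, and SCIMP and SWAP70 in 2 each. BLNK shared none of them: its closest were KPNA2 (0.837), CANT1 (0.828), CYP51 (0.807), WEE1 (0.806) and TMX1 (0.801), which include an importin, an enzyme of sterol synthesis and a mitotic kinase.

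No other B cell pathway gene among those tested passed between the sexes. Of the genes in 4 lists (receptor and coreceptors, receptor signalling, B cell transcription factors, and CD40 with its ligand, adaptors and related molecules), 24 that are no members were named and kept. The lists hold 12, 22, 18 and 21 genes in that order, of which the annotation names 4, 11, 8 and 7, members included. Limma called none of these 24 in the 5 diet comparisons or between the sexes. Between the sexes 10 were higher and 14 lower in females, with a median log2 difference of −0.017 against 0.012 over all probe sets. The transcription factors BCL11A (0.41, SE 0.15, limma adjusted p = 0.359) and ID3 (0.32, SE 0.12, limma adjusted p = 0.343) had the largest positive differences. CD80, a costimulatory ligand, had the largest negative one, −0.37 (SE 0.18, limma adjusted p = 0.482). All 6 genes of the CD40 list other than CD40 were lower in females, with differences from −0.37 to −0.074.

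**Figure D5:**
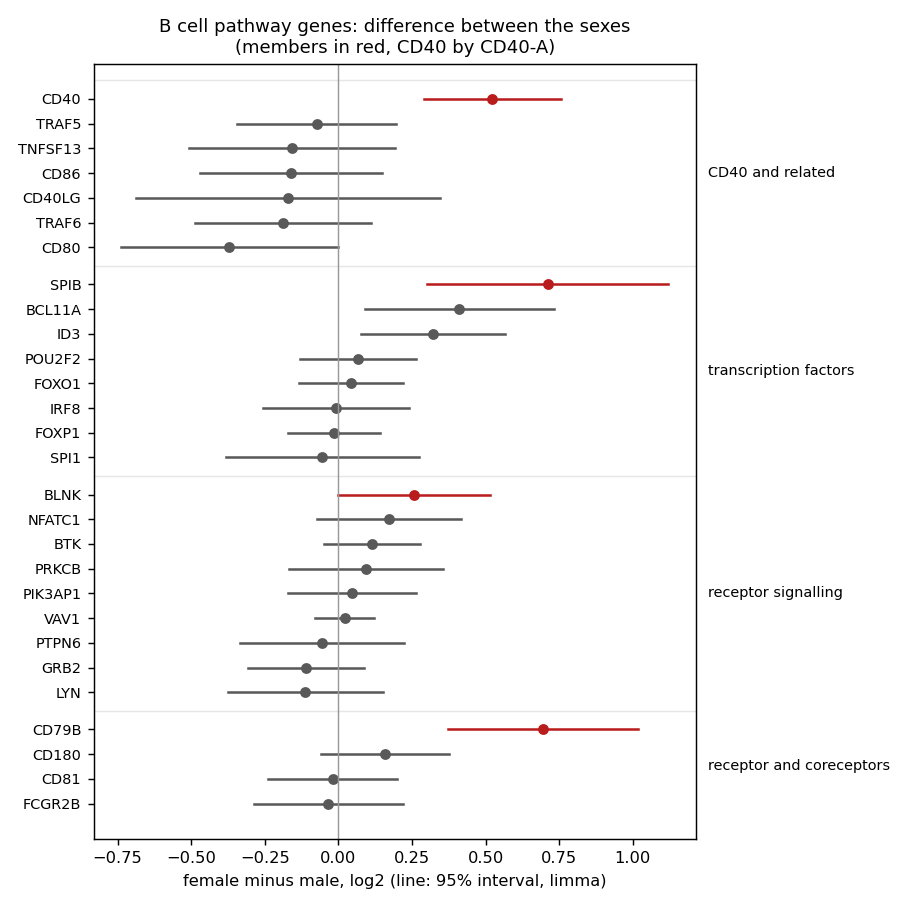
Female minus male log2 difference (points) with 95% limma intervals (lines) for the 28 B cell pathway genes kept, in 4 lists; the 4 member genes are red, with CD40-A. CD79B at 0.69, SPIB at 0.71 and CD40 at 0.52 stand to the right of the other genes, of which BCL11A at 0.41 is the nearest.

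By diet, the counts of the 24 pathway genes were 13 higher and 11 lower in AD than in CT, with a median log2 difference of 0.016. They were 7 and 17 for AD-GE against AD (median −0.17), 9 and 15 for AD-GE-RES (median −0.089) and 7 and 17 for AD-RES (median −0.16). For CT-GE-RES against CT they were 12 and 12. Over all probe sets the medians lay between −0.0024 and 0.0094. Against AD, the monocyte list was lower in 16 of 16 genes for AD-GE and in 15 of 16 for AD-GE-RES and for AD-RES. Its part in these counts and in the genes named below was not tested. Among the receptor's partners, CD180 was −0.56 in AD against CT (SE 0.18, limma adjusted p = 0.757). CD81, a tetraspanin of the coreceptor, had the most positive differences, 0.32 in AD and 0.35 in CT-GE-RES against CT (SE 0.18 each). FCGR2B, the inhibitory Fc receptor, was 0.31 in AD against CT, and −0.55 in AD-GE and −0.63 in AD-RES against AD (SE 0.21 each). In signalling, BTK, the kinase that binds BLNK, was −0.34 in AD against CT and −0.30 in AD-GE against AD (SE 0.14 each), beside −0.33 and −0.45 for BLNK. BTK was named after its values were seen, and its other comparisons are not given. LYN, which phosphorylates CD79B, was −0.45 in CT-GE-RES against CT (SE 0.22). PTPN6, a phosphatase that restrains receptor signalling, had the most positive difference of the signalling list, 0.37 in AD against CT (SE 0.23).

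SPI1, which encodes PU.1 and is strongly expressed in monocytes, was −0.66 in AD-GE and −0.87 in AD-RES against AD (SE 0.27 each), where SPIB was 0.11 and −0.097. The monocyte list was lower in the same comparisons, in 16 of 16 and 15 of 16 genes, and its part was not tested. BCL11A was −0.57 in AD against CT (SE 0.27), beside −0.42 for SPIB. CD40LG, the ligand made by T cells, was 0.70 in AD and 0.73 in CT-GE-RES against CT (SE 0.43 each). In the same comparisons 12 of 13 and 13 of 13 T cell markers were higher, with medians of 0.31 and 0.64 and none called, where 50.4% and 52.3% of all probe sets were higher. The 3′/5′ ratio had a mean of 3.15 in CT, 2.19 in AD and 2.20 in CT-GE-RES. Over the 24 arrays its r was −0.958 with CD40LG (rho −0.883) and −0.849 with the mean of the T cell markers (rho −0.837), each with a permutation p of 1e-05, also after adjustment over these 2 relations. Without the 2 arrays farthest from the median ratio r was −0.944 and −0.810. The part of the ratio in these differences was not tested, and these relations were chosen after the values were seen. TRAF5, an adaptor of CD40, was −0.47 in AD against CT and 0.60 in AD-GE against AD (SE 0.22 each). None of these differences passed limma's adjustment.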

How the data were processed

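The values are linear intensity per probe set in the deposited series table; RMA and GCOS are named for the processing, per the submitters' processing notes, without versions, and no genome build is given in the sources used here. Log2 of the deposited intensity was taken with no further normalization. Of 24123 probe sets, 124 controls and then the 25% with the lowest mean (under 3.57 log2) were left out, leaving 17999. Genes came from the platform annotation, which can be old; 8540 kept probe sets had 1 symbol. Levels of different probe sets are not comparable. limma 3.58.1 in R 4.3.3 fitted 6 diet means and sex to 24 arrays (17 residual degrees of freedom), so that all groups share 1 estimate of spread, with two-sided tests and Benjamini-Hochberg adjustment over 17999 probe sets. Permutation tests of a single probe set were two-sided: exact over 70 splits for 4 against 4 pigs, 100000 resamples otherwise. Permutations of residuals took all 24 as independent, although removing group and sex means leaves 17 degrees of freedom, so their p-values are too small. In the lists, the probe set of highest mean stood for each gene. The genes named are all members, the 5 most correlated genes of each, and, in each B cell list, genes among the 2 most positive or 2 most negative differences of a comparison; BTK was named as BLNK's partner after its values were seen. The limma step was tested on simulated data. Members, gene lists and tests were chosen with earlier results of these data known. The labels give 1 array per pig, the number of arrays limits the precision, and no scan batch is given in the sources used here. Other fits are described in the closing section.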

Additional observations from a re-analysis of the deposited data

Results flagged for a closer look

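In groups of 4 pigs, a value was picked out when its gap to the nearest other value exceeded Dixon's 95% critical share of the group's range. Of the 36 combinations of probe set and diet group, 2 were picked out, and chance alone picks out about 1 in 20. The AD-GE-RES female 2 had BLNK at 10.22, while the other 3 pigs of that group lay between 8.90 and 9.11. The AD-GE male 4 had CD40-B at 6.50, just below the 6.68 to 6.71 of the other 3 pigs; this group is the tightest of the 6 for that probe set (SD 0.10).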

How the results depend on the processing

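The member results were refitted without the sex term, with only the arrays compared, with no or a 50% filter on dim probe sets, with quantile normalization repeated, with array weights, with the 3′/5′ ratio as a covariate, without CT 4 and AD-GE-RES 1, and with each pig left out in turn. Of 1326 member differences under these settings, 1231 kept their direction and their side of the threshold, 66 changed sign, 21 lost a call and 8 gained one. This total does not measure stability, because many of the refits could not move a difference. In this balanced design, changing the sex term, the filter or the arrays fitted leaves each difference as it was. So does leaving out a pig of a group outside a diet comparison. With the ratio as a covariate, 15 of 42 differences changed sign. No member passed in any diet comparison under any of them, and no female minus male difference changed sign. The limit is the 4 pigs a group, with SEs of 0.19 to 0.44 for a diet difference. No paired analysis was possible because the pig numbers in the labels are all different and pair no pigs across groups. The planned promoter motif search was not run, as no promoter sequences were used here. The cause of the changes below was not tested.

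Between the sexes, 1 of 6 members was called. It was 3 with array weights, 3 without CT 4 and AD-GE-RES 1, 0 with the ratio as a covariate, 0 without the filter and 0 to 3 with 1 pig left out (3 without AD-GE-RES 1). Over all probe sets, 48 calls became 806 with array weights, 216 without CT 4 and AD-GE-RES 1 and 32 to 242 with 1 pig left out (32 without AD-GE 3, 242 without AD-GE-RES 1). The F test of sex by diet went from 46 calls to 387, 306 and, with the ratio, 160. With array weights, the diet F test called 92 probe sets in place of 0 and AD-GE against AD 1 in place of 0, none of them members. The r of CD79B and BLNK was 0.307 with group and sex means removed and 0.299 with the ratio removed too, neither of which passed.

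With the ratio as a covariate, these log2 differences changed sign. For CD40-B they became −0.21 (AD against CT), 0.069 (AD-GE), 0.080 (AD-GE-RES), −0.098 (AD-RES), −0.042 (CT-GE-RES against CT) and 0.12 (interaction). For CD40-C they became −0.20, 0.015, 0.094, −0.011, −0.022 and 0.12 in the same order. For CT-GE-RES against CT, CD40-A became 0.029 and SPIB 0.064, and the SPIB interaction became −0.015. Without CT 4 and AD-GE-RES 1, CD40-C became −0.045 for AD against CT. For AD-GE-RES against AD, BLNK became 0.087, CD40-B 0.13 and CD40-C 0.066. For CT-GE-RES against CT, CD40-A became 0.0051 and SPIB 0.046. With array weights, CD40-B became 0.024 for AD-GE and 0.16 for AD-GE-RES, and CD40-C 0.080 for AD-GE-RES. With repeated quantile normalization, CD40-B became −0.0076 for AD-RES.

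With 1 pig left out, ranges that cross 0 were as follows. AD against CT gave −0.062 to 0.88 (CD40-C) and −0.020 to 0.48 (CD40-B). AD-GE against AD gave −0.076 to 0.18 (CD40-A), −0.36 to 0.034 (CD40-C), −0.26 to 0.16 (CD40-B) and −0.049 to 0.25 (SPIB). AD-GE-RES against AD gave −0.34 to 0.079 (BLNK), −0.55 to 0.092 (CD40-C), −0.36 to 0.14 (CD40-B), −0.015 to 0.49 (CD79B) and −0.19 to 0.60 (SPIB). AD-RES against AD gave −0.049 to 0.35 (CD40-C), −0.21 to 0.20 (CD40-B) and −0.30 to 0.040 (SPIB). CT-GE-RES against CT gave −0.19 to 0.070 (CD40-A) and −0.22 to 0.088 (SPIB). The interaction gave −0.050 to 0.36 (BLNK) and −0.19 to 0.60 (SPIB).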

Other observations

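The monocyte markers correlated negatively with CD79B, SPIB and CD40-A within diet and sex. After the means of diet group and sex were removed, r with the mean of the 16 monocyte markers over 24 arrays was −0.713 for CD40-A (permutation p adjusted over 12 relations 3.2e-04), −0.606 for SPIB (0.00474) and −0.569 for CD79B (0.00965). BLNK had −0.291 (0.286), CD40-B −0.174 (0.455) and CD40-C −0.045 (0.834). Without removing these means, r was −0.393 for CD40-A, −0.396 for SPIB, −0.321 for CD79B and 0.090 for BLNK. None of these passed (permutation p adjusted 0.174, 0.174, 0.252 and 0.878). With the mean of the 13 T cell markers, CD79B, SPIB, CD40-A and BLNK had r of −0.049, 0.034, −0.046 and −0.359 as measured, and 0.323, 0.259, 0.232 and −0.183 with the means of diet group and sex removed, none of which passed (permutation p adjusted 0.198 to 0.878 and 0.244 to 0.455). With the 3′/5′ ratio removed too, r was 0.739, 0.696 and 0.715 for CD79B, SPIB and CD40-A (permutation p adjusted 4.8e-04, 7.68e-04 and 4.8e-04) and 0.261 for BLNK (0.217), so of these settings they passed in the last alone. These relations were chosen after the values were seen, and the lists and members share arrays. Where means were removed, the permutations took the 24 residuals as independent, which they are not, so these p-values are too small.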
